A study of Drosophila melanogaster with 12 samples.

Results

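Sons of methylphenidate-fed mothers were set against males given sucrose alone. Methylphenidate is a psychostimulant that blocks reuptake of dopamine and noradrenaline. The 6 arrays were chosen by their labels out of 12 Drosophila melanogaster arrays in 4 groups of 3, each array carrying total RNA of 8 pooled whole wild-type (wt) males. The males of 1 pair of groups had themselves been exposed for 24 h to sucrose or to methylphenidate, and both other groups were male F1 offspring. The labels speak of exposure without its route, and fed is used here as the short name. By their labels, the sons described here had a father exposed to sucrose and a mother exposed to methylphenidate. The label of the other F1 group gives sucrose for both parents, whereas the series' own design note names a single cross, sucrose male by methylphenidate female, for all 6 F1 samples. The labels were followed. Neither the age of any flies nor the food of the sons themselves is stated in the labels, so generation, age, food and handling cannot be told apart here. The mother's exposure to methylphenidate and the males' own 24 h exposure also go with generation in this comparison, and cannot be separated from it. Nothing in the labels says whether the 3 samples of a group came from separate cultures, so p-values measure only the spread between these samples.

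In flies, the larval fat body makes storage proteins that are used up through metamorphosis and early adult life, and the adult cuticle is completed around eclosion. The midgut secretes peptidases, maltases and lipases, and the levels of these transcripts are known to follow diet. A large share of male transcripts come from the testis and from the accessory glands and ejaculatory bulb, which make the proteins of the seminal fluid. In bulk RNA, fewer cells of a type and less RNA per cell cannot be told apart.

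Of 18769 probe sets tested, 3005 (16.0%) differed between the sons and the sucrose-fed males, 1233 higher in the sons (6.57%) and 1772 lower (9.44%). The test was limma's moderated test on deposited log2 signal, fitted over all 12 arrays, with a Benjamini-Hochberg adjusted p under 0.05. Without adjustment, 5084 probe sets had p under 0.05. The increases were the larger changes: 131 of them exceeded 2-fold (0.698% of all probe sets), against 4 of the decreases (0.0213%). Median log2 differences were 0.47 among the increases and -0.38 among the decreases. Sons and males were fully separated at 1218 of the increases and 1751 of the decreases, and at 32.3% of all probe sets (13.7% with the sons higher, 18.6% lower). Counted as genes, with the brightest probe set standing for each of 11982 genes, 8.91% were higher and 12.8% lower. These shares are the background for every gene list below, and the median difference over all genes was -0.03. Values below about 0.5 on this log2 scale lay near the floor of the array, where fold changes are understated.

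Median log2 signal ran from 1.37 to 1.57 over the 12 arrays, and the lowest correlation within a group was 0.995. The lowest median belonged to array 3 of the sons of sucrose-fed parents, and the next lowest was 1.495. A measure of RNA integrity, how far the 3′ probe set of the GAPDH control exceeded its 5′ probe set, was 1.53 ± 0.02 (SD, n = 3) in the sons and 1.62 ± 0.09 in the sucrose-fed males. An exact two-sided permutation test gave p = 0.3, where 3 against 3 can give no less than 0.1. The same measure differed by 0.05 for the actin control (p = 0.6) and by -0.13 for the eIF4A control (p = 0.2) by the same exact test, and the adjusted p over the 4 array measures tested was 0.6 for each. With that difference as a covariate, 846 probe sets passed, 470 higher and 376 lower. All 3005 kept their sign. The first and second male arrays had the highest GAPDH values, 1.70 and 1.64, and the third lay at 1.53 beside the sons. Without the first array of the sons 1724 passed, and without the first array of the sucrose-fed males 1741 passed. The counts with the covariate are given beside most of the gene lists that follow. A check on genes of yolk, eggshell and oogenesis found 16 of 19 under 0.5, Yp1 and Yp2 among them. The summed linear signal of the 19 was 28.4 to 32.5 in the sons against 23.4 to 25.0 in the males. Without Yp3, given below, the sums overlapped, 19.96 to 22.19 in the sons and 20.27 to 20.94 in the males.

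**Figure D1:**
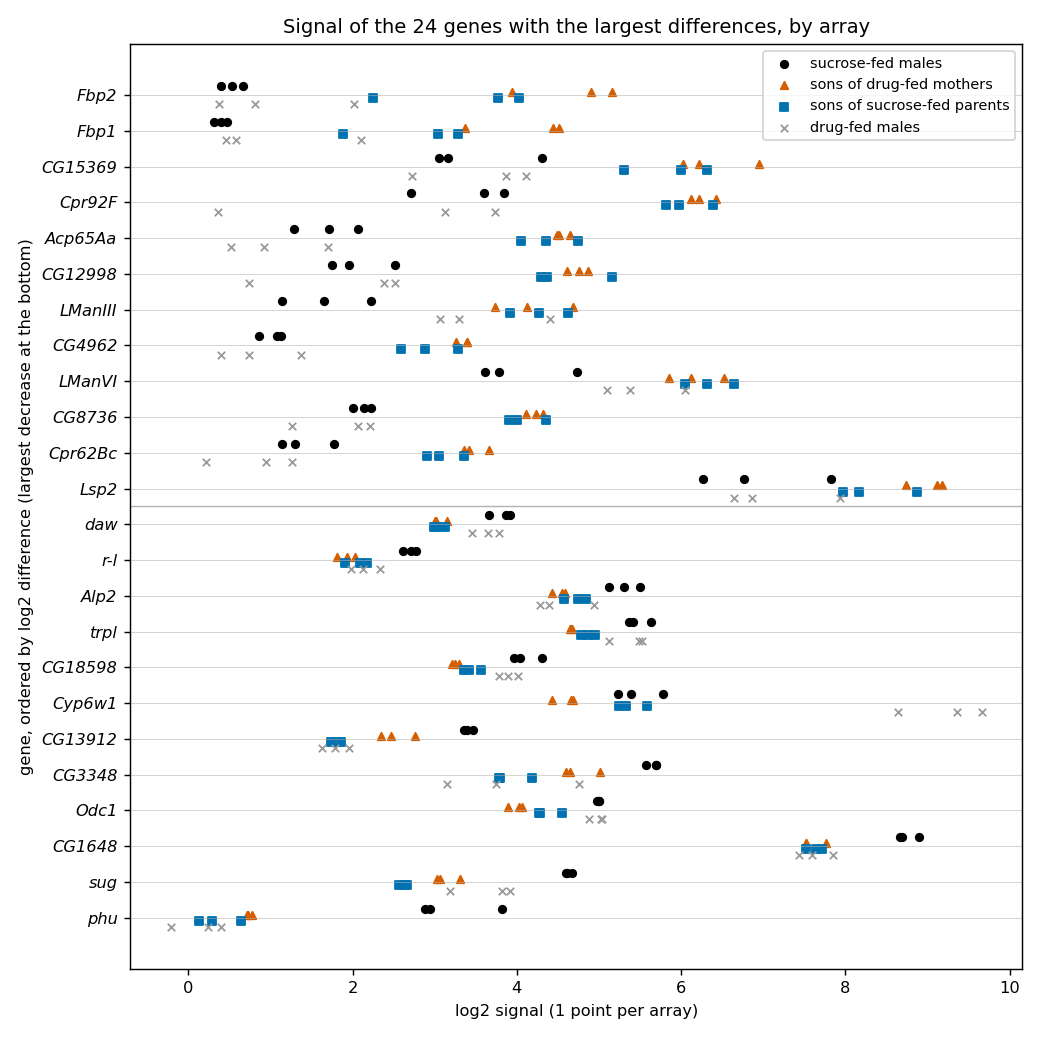
Log2 signal in each of the 12 arrays for the 12 genes that rose most and the 12 that fell most in sons of drug-fed mothers against sucrose-fed males (x axis, log2 signal; y axis, genes in order of the difference; 1 point per array, 4 groups by colour and symbol). Fbp2 lies at 0.40 to 0.66 in sucrose-fed males and 3.94 to 5.16 in the sons; phu lies at 2.88 to 3.81 in sucrose-fed males and at 0.78 or less on all other arrays.

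The largest differences in named genes were in late larval fat body transcripts. Fbp2, fat body protein 2 on chromosome arm 2L, read 0.66, 0.53 and 0.40 in sucrose-fed males and 5.16, 3.94 and 4.90 in the sons. No value overlapped. The difference was 4.14 ± 0.45 (SE) on the log2 scale, or 17.6-fold, with adjusted p = 0.000121. Fbp1, the receptor through which the larval fat body takes back storage hexamerins, went from 0.40, 0.47 and 0.32 to 4.44, 3.37 and 4.51, a 13.1-fold rise. The males lay at the floor for both genes, so both folds understate the change. Lsp2, a storage hexamerin, was well above the floor in both groups, at 6.76, 6.26 and 7.83 in the males and 9.18, 8.74 and 9.12 in the sons. The third male array, the highest of its group, came closest to the sons without overlap, and the difference was 2.06 ± 0.37 (SE) (adjusted p = 0.00266). With the GAPDH covariate Lsp2 no longer passed.

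Over the list of storage and fat body proteins, 10 of 23 genes rose and 0 fell, with a median of 0.34 (6 rose with the covariate). Sodh1, a sorbitol dehydrogenase, rose by 1.34 (adjusted p = 9.36e-05), from 7.72, 7.39 and 7.50 to 8.93, 8.93 and 8.78. The lipophorin precursor apolpp, the main carrier of lipid in hemolymph, rose by 0.56 and regucalcin by 0.78. Of 3 probe sets for regucalcin, 1 had the opposite sign. Yp3, a yolk protein that the fat body makes, read 2.03, 1.62 and 1.74 in the males and 3.36, 3.11 and 3.08 in the sons, a rise of 1.38, while Yp2 read 0.16, 0.15 and 0.24 and 0.40, 0.63 and 0.18 and did not pass.

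Cuticle transcripts formed the next group. Acp65Aa, an adult cuticle protein on 3L, measured 2.07, 1.71 and 1.29 in sucrose-fed males and 4.51, 4.65 and 4.49 in the sons, 7.26-fold higher (log2 2.86 ± 0.26 (SE), adjusted p = 4.08e-05). The groups were separated by more than 2 log2 units. Cpr92F and Cpr62Bc, chitin-binding cuticle proteins of the Rebers-Riddiford family, rose by 2.87 and 2.07. Values of Cpr92F ran 3.84, 3.59 and 2.71 against 6.42, 6.11 and 6.22. Of 92 cuticle genes, 20 rose and 1 fell (Cpr56F, by 0.57), and 15 rose and 1 fell with the covariate. Since 55 of the 92 had a mean signal under 0.5, the list splits by level: 19 of the 37 brighter genes rose, with a median difference of 0.36, and 1 of the 55 dim ones did.

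The 12 largest increases also held CG15369, CG12998, CG4962 and CG8736, at 2.89, 2.67, 2.33 and 2.09. Some other genes that act in chitin or cuticle also rose. Vajk2 and Vajk3, from a family of cuticle-associated proteins, rose by 1.79 and 1.88, while Vajk1 and Vajk4 were near the floor in both groups and did not pass. Gasp, which binds chitin, rose by 0.90 and Cht7, a chitinase, by 0.72. The chitin deacetylase-like gene Cda5 rose by 0.61. The enzyme ebony (e), which supplies N-β-alanyldopamine for cuticle tanning and also acts in glia, read 3.01, 2.88 and 2.95 in the males and 3.89, 3.53 and 3.50 in the sons, a rise of 0.70 (adjusted p = 0.000803).

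**Figure D2:**
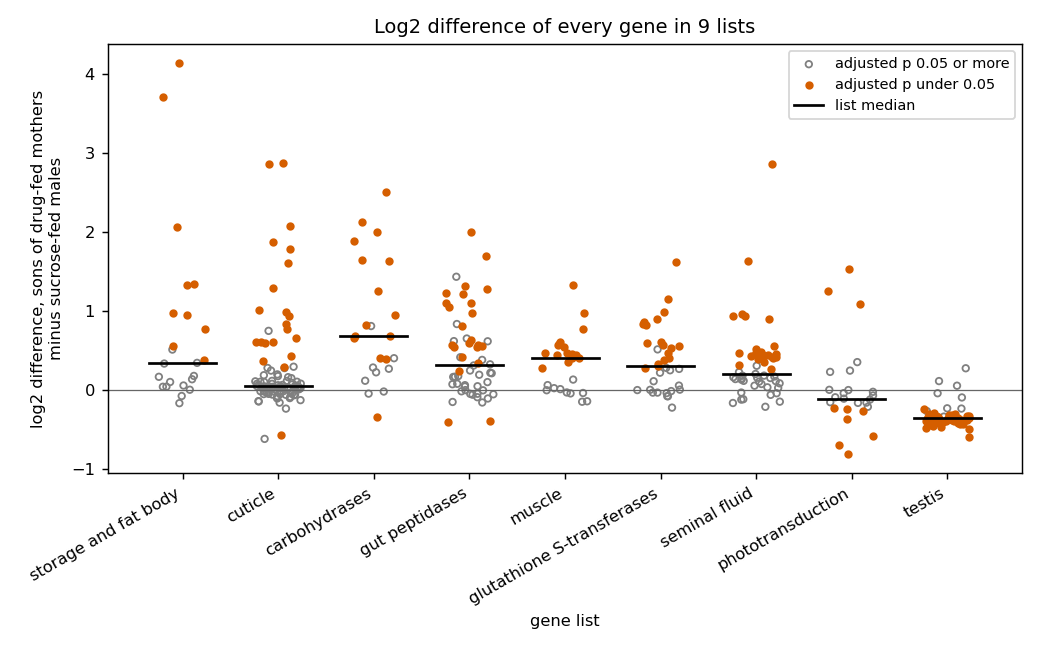
Log2 difference between sons of drug-fed mothers and sucrose-fed males (y axis) for every gene of 9 lists (x axis), 1 point per gene, filled where the adjusted p was under 0.05, with a bar at the list median. Testis genes sit in a narrow band around a median of -0.36, whereas storage and cuticle genes spread upward to 4.14 and 2.87.

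Many digestive enzymes were higher in the sons. Of 23 carbohydrases, 14 rose and 1 fell (Gbs-70E, a glycogen-binding protein that entered by its name), with a median of 0.68, and 10 rose and 1 fell with the covariate. Lysosomal α-mannosidases had the largest increases: LManIII read 1.14, 2.22 and 1.66 in the males and 4.68, 4.12 and 3.73 in the sons (5.69-fold, adjusted p = 0.000500), and 5 of the 6 LMan genes rose, LManVI by 2.12. The maltase Mal-A4, which splits sucrose and maltose, read 3.69, 4.67 and 4.15 against 6.23, 6.19 and 6.08, with sons tightly grouped above the highest male. It rose by 2.0 ± 0.20 (SE) (adjusted p = 9.24e-05). Mal-A3, Mal-A7 and Mal-A2 rose by 1.64, 1.26 and 0.82, and the amylase relative Amyrel by 1.89. Mal-A1 differed by 0.28 and did not pass (adjusted p = 0.0815), and Mal-A5 differed by 0.12 and did not pass either.

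Among 56 gut peptidases 21 rose and 2 fell (CG8329 and CG8564, by 0.41 and 0.39), with a median of 0.32. This count was 13 without the first male array and 4 with the covariate. The Jonah serine proteases, made in the midgut, gave 6 increases among 13. Jon65Ai read 2.69, 3.37 and 3.71 in the males, 5.01, 4.98 and 4.87 in the sons and 1.45, 1.71 and 0.96 in drug-fed males. Its rise over the sucrose-fed males was 1.70 ± 0.28 (SE), or 3.25-fold (adjusted p = 0.00154). Jon25Bii, in contrast, spread over 5.04, 6.26 and 6.60 in the sucrose-fed males, more than a unit within the group, and its rise of 1.23 had an adjusted p of 0.0264. The serine protease CG18180 rose by 2.0, and Jon99Fi differed by 0.38 and did not pass. With the covariate Jon25Bii, CG18180, CG8329 and CG8564 lost their calls, and Jon25Bii also lost it without male array 1 or any array of the sons.

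Lipases followed, with 13 of 30 higher and 0 lower. Leaving out the first or the second array of the sons gave 8, and the covariate gave 4. Magro (mag), a gut lipase that digests dietary lipid, measured 5.11, 5.94 and 5.53 in the males and 6.76, 6.59 and 6.75 in the sons, a rise of 1.18 (adjusted p = 0.00255) that no longer passed with the covariate. Peritrophin-15a, a protein of the peritrophic matrix that lines the midgut, rose by 1.63. In the list of mucins, peritrophins and chitinases as a whole, 6 of 52 rose and 1 fell (Cht12), and 10 rose when the fit was limited to the 6 arrays. The covariate gave 6 increases and 0 decreases. Cht12 lost its call after quantile normalization, with the covariate, without male array 1 or 3 and without any 1 of the arrays of the sons.

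**Figure D3:**
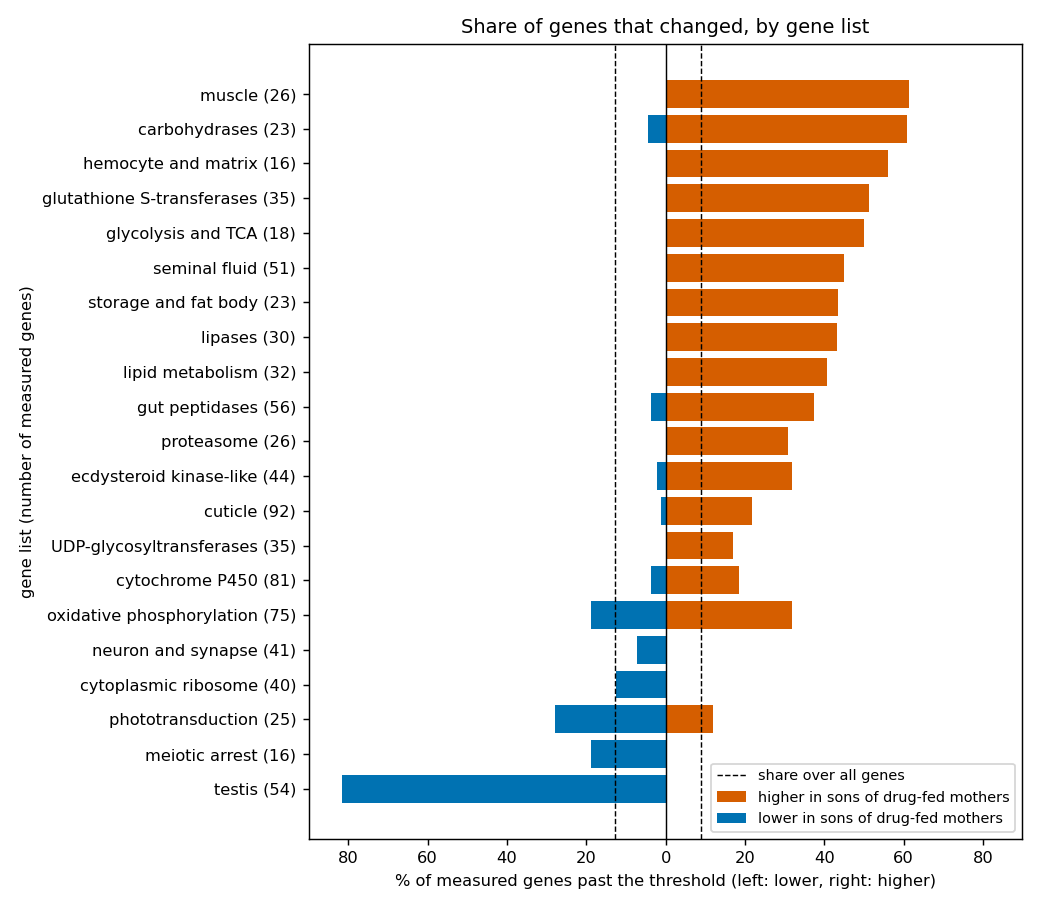
Percentage of measured genes higher (right) or lower (left) in sons of drug-fed mothers than in sucrose-fed males, for 21 gene lists with their sizes in brackets. Dashed lines mark the shares over all genes, 8.91% higher and 12.8% lower, and the testis list reaches furthest to the left with 44 of 54 genes.

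Most testis transcripts were lower in the sons. Of 54 testis genes 44 fell and 0 rose, and the differences were small, with a median of -0.36. Mst77F, a chromatin protein of the condensing sperm nucleus, read 9.67, 9.53 and 9.57 in the males and 9.08, 9.18 and 9.17 in the sons, a difference of -0.44 ± 0.07 (SE) (adjusted p = 0.00190). The groups did not overlap. The post-meiotically transcribed genes t-cup, r-cup and sunz differed by -0.50, -0.44 and -0.49 and all passed, and 1 of the 3 r-cup probe sets had the opposite sign. The summed linear signal of the list was 11260 to 11950 in the sons, 13880 to 15090 in sucrose-fed males and 12030 to 13160 in drug-fed males. Leaving out the first male array gave 27 genes lower, leaving out the first array of the sons gave 28, and the covariate gave 9, with the list's median at -0.36 with the covariate too.

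In the list of meiotic arrest and related genes, which drive the testis programme, 3 of 16 fell (bol, topi and vis). The translational regulator of meiotic entry bol fell by 0.36, and 1 of its 3 probe sets had the opposite sign. Of 22 genes of the piRNA pathway, which silences transposons in the germ line, 4 fell (AGO3, Hen1, mael and squ). With the covariate bol, topi, vis, Hen1, mael and squ no longer passed, and each of them also lost its call when 1 or more single arrays were left out. Respiratory chain genes were split by name after values were seen. Of 19 whose symbols end in L, L1 or L2, a naming used for duplicate genes, 14 fell and 1 rose. Of the other 56 subunits 23 rose and 0 fell.

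Transcripts of seminal fluid proteins were higher instead. Of the 51 genes in the list 23 rose and 0 fell, and 11 rose with the covariate. One of the 23 is Acp65Aa, a cuticle protein that entered by its name, so that 22 of 50 seminal genes rose, with a median of 0.19. Obp56e, of the odorant-binding protein family, read 4.52, 4.58 and 4.54 against 6.15, 6.01 and 6.39 and rose by 1.64 (adjusted p = 0.000264). Acp53C14c, an accessory gland peptide, rose by 0.94 and the serpin Spn77Bb by 0.90. The summed linear signal was 23790 to 24170 in the sons and 20090 to 20190 in the males.

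Muscle transcripts were higher in the sons, with 16 of 26 genes up, 0 down and a median of 0.40. Act88F, the actin of indirect flight muscle, read 7.56, 7.75 and 7.46 in the males and 8.88, 9.05 and 8.83 in the sons, a 2.51-fold rise (adjusted p = 0.00129). Flightin (fln), a thick-filament protein of the same muscle, rose by 0.98, troponin T (up) by 0.58, tropomyosin 2 (Tm2) by 0.57 and myosin light chain 2 (Mlc2) by 0.55. The count was 10 when the third male array or the second array of the sons was left out, and 5 with the covariate, under which fln and Mlc2 were lost and the list's median was 0.37. The muscle list's summed linear signal was 10140 to 10870 in the sons against 7986 to 9065.

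Genes of energy metabolism showed small differences. In all, 9 of 18 genes of glycolysis and the TCA cycle rose and 0 fell, among them the hexokinase Hex-C by 0.59 and phosphoglycerate kinase (Pgk) by 0.39. The 75 respiratory chain genes gave 24 increases and 14 decreases, split as described above. Without the first array of the sons there were 4 glycolytic and 6 respiratory increases, and the covariate gave 2 and 1. Respiratory increases numbered 8 without male array 1, 9 without male array 3 and 12 without the second array of the sons, and glycolytic increases 5 in each of these fits. The 14 respiratory decreases became 8, 6, 9 and 9 without the first array of the sons, male array 1 or 3, or the second array of the sons, and 2 with the covariate, under which Pgk was lost. In lipid metabolism 13 of 32 genes rose and 0 fell (6 with the covariate), led by FASN3, a fatty acid synthase, at 0.80 and mdy, the diacylglycerol acyltransferase midway, at 0.62. Glycogen phosphorylase (Glyp) rose by 0.65.

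In the list of hemocyte genes, 9 of 16 rose and 0 fell. Both type IV collagen chains rose, vkg by 0.69 and Col4a1 by 0.64, with SPARC, which binds them, at 0.46 and the integrin ligand Tig at 0.59. The count was 5 without male array 1 or 3 or without any 1 of the 3 arrays of the sons, and 2 with the covariate, under which Col4a1 and SPARC were lost.

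Nutrient-responsive genes moved in both directions, 8 of 39 up and 6 down (4 up and 4 down with the covariate). Sugarbabe (sug), a Gli-similar transcription factor induced by dietary sugar, fell most: 4.60, 4.61 and 4.67 in the males, 3.02, 3.30 and 3.06 in the sons, a difference of -1.50 ± 0.14 (SE) (adjusted p = 6.06e-05). Drug-fed males read 3.19, 3.81 and 3.91. The activin-like ligand dawdle (daw), which also responds to sugar, fell by 0.76, from 3.86, 3.66 and 3.91 to 3.0, 3.14 and 3.02. The insulin receptor InR fell by 0.60 and limostatin (Lst), a hormone that suppresses insulin secretion, fell by 0.46. Among the increases were both phosphoenolpyruvate carboxykinases of gluconeogenesis, Pepck1 at 0.74 and Pepck2 at 0.85, and the fat body lipase brummer (bmm) at 0.46. Pepck1 and bmm did not pass with the covariate, and Lst lost its call without male array 1 or 3 or any array of the sons. The satiety gene fit, female-specific independent of transformer, rose by 2.0, from 4.95, 4.38 and 4.90 to 6.94, 6.63 and 6.65.

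Of the 12 genes that fell most, phu and CG1648 were high in the sucrose-fed males alone. The gene phu, on 3R, read 3.81, 2.94 and 2.88 in sucrose-fed males, 0.78, 0.72 and 0.71 in the sons, 0.64, 0.29 and 0.14 in sons of sucrose-fed parents and -0.21, 0.39 and 0.24 in drug-fed males. All 9 other arrays were near the floor, so the log2 difference of -2.48 ± 0.21 (SE) understates the change. For CG1648 the corresponding values were 8.69, 8.67 and 8.89, then 7.76, 7.53 and 7.52, 7.71, 7.53 and 7.64 and 7.43, 7.86 and 7.59. A further 3 genes were chosen after their values were seen. Jabba, which anchors histones on lipid droplets, differed by -0.75, the adipokinetic hormone receptor AkhR by -0.50 and the lipid droplet protein Lsd-1 by -0.45, and all passed. Between sons of sucrose-fed parents and drug-fed males, Jabba differed by 0.15, AkhR by 0.05 and Lsd-1 by -0.08, and none of the 3 passed. The calls of AkhR and Lsd-1 were lost with the covariate.

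Among the other large decreases, Odc1, ornithine decarboxylase of polyamine synthesis, read 5.0, 5.0 and 4.98 against 4.03, 4.06 and 3.89 and differed by -1.0 ± 0.09 (SE) (adjusted p = 3.91e-05). The rudimentary-like gene r-l, whose enzyme makes UMP in pyrimidine synthesis, fell by 0.77. CG3348 fell by 0.90 with an adjusted p of 0.0417, and 11 of 23 alternative settings lost its call. CG18598, CG13912 and Alp2 differed by -0.85, -0.88 and -0.79, and all passed. Cyp6w1 fell by 0.88 and lost its call without the third male array.

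Genes of phototransduction and eye pigment moved in both directions. Of 25 phototransduction genes 7 fell and 3 rose. The genes that fell were Arr2, trpl, inaD, Galphaq, chp, laza and rtp. Arrestin 2 (Arr2), which quenches active rhodopsin, read 8.87, 8.98 and 9.0 in the males and 8.25, 8.27 and 8.22 in the sons, -0.70 ± 0.07 (SE) (adjusted p = 6.97e-05). The cation channel trpl fell by 0.81 and the scaffold inaD fell by 0.58, while Arr1 differed by -0.12 and did not pass. The 3 genes that rose serve supply of the retinal chromophore: the scavenger receptor ninaD, which takes up carotenoids, rose by 1.53, the carotenoid oxygenase ninaB by 1.25 and the oxidoreductase ninaG by 1.09. With the covariate ninaD, chp, laza and rtp did not pass. The count of decreases was 4 with the replicate block, with the covariate, and when any of 5 single arrays was left out, namely each of the male arrays and arrays 1 and 3 of the sons.

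Few neuronal markers passed. Of 41 neuron and synapse genes 3 fell (Shaw, stj and para) and 0 rose, beside 12.8% lower over all genes, and each of the 3 lost its call without at least 1 single array. The covariate gave 4 decreases and 0 increases in this list. Among 33 biogenic amine genes, the list closest to the target of methylphenidate, 5 rose and 0 fell (e, Pu, Dhpr, DAT and Catsup). That is 15.2% higher, beside 8.91% higher over all genes. The dopamine transporter DAT read 0.77, 0.98 and 0.92 in the males and 1.44, 1.30 and 1.28 in the sons, both low, a rise of 0.45 ± 0.11 (SE) (adjusted p = 0.0151). Punch (Pu), GTP cyclohydrolase of the tetrahydrobiopterin pathway, rose by 0.63 and Dhpr by 0.54. Dopa decarboxylase (Ddc) was at 4.97, 5.17 and 5.09 against 4.99, 5.03 and 5.22, tyrosine hydroxylase (ple) was at the floor, at 0.13, 0.19 and 0.14 against 0.24, 0.11 and 0.11, and the vesicular transporter Vmat differed by 0.18. None of the 3 passed, and 2 of the 4 Vmat probe sets had the opposite sign. DAT and Catsup lost their calls without the first male array, without the first array of the sons and with the covariate. The amine list gave 3 increases in each of those fits.

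Of 35 neuropeptide genes 6 rose and 1 fell (CCAP), and 4 rose and 0 fell with the covariate. The call of CCAP was lost with the replicate block, in the trended robust fit, with the covariate and without any 1 of the male arrays, among other settings. CCHa2, a peptide of the fat body and gut that responds to nutrients, rose by 0.62, and the neuropeptide-like precursors Nplp3 and Nplp4 by 1.28 and 1.09. Of 28 clock genes 2 rose (tim and CG11891) and 1 fell (vri), both below the background shares. The covariate gave 1 increase and 1 decrease. Timeless (tim) rose by 0.55, from 4.70, 4.72 and 4.79 to 5.21, 5.35 and 5.30, and vrille (vri) fell by 0.49, from 4.10, 4.24 and 4.11 to 3.62, 3.67 and 3.68. In period (per) the difference was 0.16 and in Clk -0.08, and neither passed. The hour of collection is not in the labels.

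Many detoxification enzymes were higher in the sons. Of 35 glutathione S-transferases 18 rose and 0 fell, 11 without the first male array and 8 with the covariate. The list's median was 0.30 both with all arrays and without that array, and 0.29 with the covariate. GstD5 read 2.97, 2.99 and 2.35 in the males and 4.57, 4.15 and 4.46 in the sons, a 3.08-fold rise (adjusted p = 0.000965). Of 81 cytochrome P450 genes 15 rose and 3 fell (Cyp310a1, Cyp6a20 and Cyp6w1), led by Cyp309a1, which went from 2.68, 2.97 and 3.06 to 4.66, 4.34 and 4.63 (log2 1.64 ± 0.10 (SE), adjusted p = 2.33e-06). Of 35 UDP-glycosyltransferases 6 rose and 0 fell. With the covariate 6 P450 and 3 UDP-glycosyltransferase genes rose. Of 44 genes of the ecdysteroid kinase-like family 14 rose and 1 fell, CG31099 (9 rose without the first array of either group, 7 with the covariate). CG31099 lost its call with the covariate, without male array 1 or 3 and without array 1 of the sons.

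Immune genes changed in a few members. Of 9 peptidoglycan and glucan recognition proteins 3 rose and 0 fell, and of 34 immune signalling genes 4 rose and 1 fell. With the covariate 1 of each list rose, and 1 signalling gene fell. PGRP-SC2, an amidase that degrades peptidoglycan, read 4.58, 4.76 and 4.73 in the males and 6.12, 6.26 and 6.15 in the sons, a 2.80-fold rise (adjusted p = 0.000669). Pirk, a negative regulator of the Imd pathway, rose by 1.43, from 1.63, 1.84 and 1.68 to 3.15, 3.14 and 3.14, and PGRP-SB1, another amidase, by 1.42. Of 24 antimicrobial peptide and related genes 2 rose (IM33 and Def) and 2 fell (Drsl5 and Drsl4). That is 8.33% each way, beside 8.91% higher and 12.8% lower over all genes. PGRP-SB1, IM33, Def and Drsl4 did not pass with the covariate.

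The sons of sucrose-fed parents gave a second comparison with the same 3 sucrose-fed arrays. Because those arrays are shared, likeness between both comparisons is no separate evidence, and the values are given side by side only. In that comparison 3854 probe sets passed (20.5%), 1188 higher (6.33%) and 2666 lower (14.2%), or 8.63% and 19.0% over genes. Fbp2 differed by 2.82 there and 4.14 here, Acp65Aa by 2.69 and 2.86, Mal-A4 by 2.14 and 2.0, and sug by -2.01 and -1.50. Testis genes fell in 48 of 54 there and 44 here, and muscle genes rose in 10 of 26 there and 16 here. Set directly against each other, both groups of sons differed at 1 of 18769 probe sets (0.00533%) by limma, with 1513 at an unadjusted p under 0.05. Of the 3005 probe sets called here, 267 had an unadjusted p under 0.05 in that direct test. The 3005 were chosen with the same arrays of sons of drug-fed mothers, so this count is no separate check. The probe set that passed carries no gene name in the tables used here. It read 1.20, 1.57 and 1.48 in the sons of drug-fed mothers, 0.59, 0.37 and 0.40 in the other sons and 0.30, 0.48 and 0.03 in the sucrose-fed males.

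A comparison with no array in common set the sons of sucrose-fed parents against the drug-fed males, and 2010 probe sets passed there (10.7%), 778 higher (4.15%) and 1232 lower (6.56%). Without single arrays of these groups the count fell as low as 780 (drug-fed array 3), 1240 (drug-fed array 2), 1104 and 1201 (arrays 2 and 3 of the sons of sucrose-fed parents). The split depended on scaling and on single arrays: increases were 38.7% of the calls as deposited, 58.5% after quantile normalization and 74.5% after median centring. Without array 3 of the sons of sucrose-fed parents they were 59.1%, without their array 1 30.1%, and without drug-fed array 3 53.3%. For the comparison of sons of drug-fed mothers with sucrose-fed males the share stayed between 41.0% and 43.3% under the same scalings. Of the 1233 increases in sons of drug-fed mothers, 545 were also called higher on the other 6 arrays, 44.2% of one list and 70.1% of the other, and 37 were called lower. Of the 1772 decreases, 485 were shared, 27.4% and 39.4%, and 0 were opposite. Both comparisons came from 1 fit, with the same spread estimate for each probe set. The shared calls are therefore not from separate tests, although the arrays differ. The overlap was not taken for fits limited to the arrays of each comparison. Over all 18769 probe sets the log2 differences correlated at 0.565, a description across probe sets, which are not independent.

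**Figure D4:**
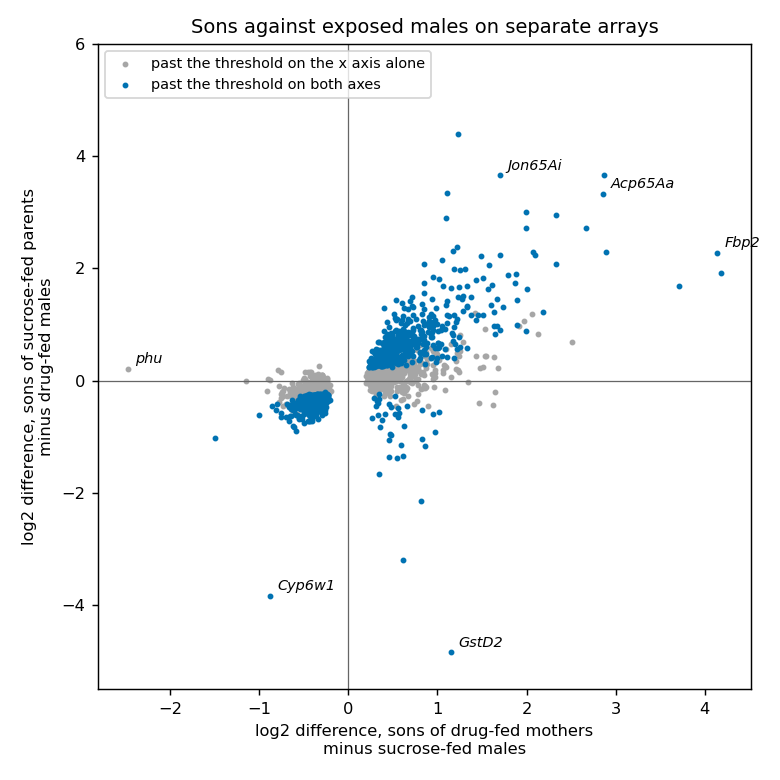
Log2 difference of sons of drug-fed mothers minus sucrose-fed males (x axis) against that of sons of sucrose-fed parents minus drug-fed males (y axis) for the 3005 probe sets that passed in the former, blue where they passed in both. Cuticle and Jonah genes lie far up to the right, GstD2 and Cyp6w1 lie far below 0 on the y axis, and phu lies near 0 on it.

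On those other arrays cuticle genes gave 22 increases of 92, gut peptidases 31 of 56, lipases 12 of 30, seminal fluid 28 of 51 and muscle 15 of 26, against background shares of 5.52% higher and 8.76% lower over genes. Acp65Aa differed by 3.33 there, Jon65Ai by 3.66, Act88F by 1.70 and Fbp2 by 2.28. Carbohydrases gave 4 increases of 23, 7 without drug-fed array 1, and 0 or 1 without drug-fed array 2 or 3 or array 2 of the sons. The seminal fluid count was 18 without drug-fed array 3. Testis genes gave 12 decreases of 54, which became 7 after quantile normalization, 0 after median centring, 4 with the covariate and 0 to 3 when array 2 or 3 of either group was left out. It was 24 with a trended robust fit and 17 with the dimmest 50% of probe sets left out or without array 1 of these sons. The list's median was -0.20 as deposited, -0.21 with the covariate and -0.11 after median centring. LManIII, for one, read 4.41, 3.29 and 3.06 in drug-fed males and 3.92, 4.62 and 4.28 in sons of sucrose-fed parents, and its difference of 0.69 did not pass.

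On the same 6 arrays the detoxification lists had more decreases than increases. In all, 12 of 35 glutathione S-transferases were lower and 2 higher, 25 of 81 P450 genes lower and 4 higher, and 17 of 44 ecdysteroid kinase-like genes lower and 4 higher. After median centring the glutathione S-transferases gave 8 lower and 5 higher. The drug-fed males had the highest values of the genes shown: GstD2 read 6.50, 7.94 and 7.43 in them, 1.33, 1.45 and 0.92 in sucrose-fed males, 2.16, 2.01 and 2.98 in sons of drug-fed mothers and 2.37, 2.81 and 2.17 in the other sons. GstD2 thus rose by 1.15 in sons of drug-fed mothers over sucrose-fed males (lost with the covariate and without male array 1 or 3 or array 3 of the sons) and differed by -4.84 between the other sons and drug-fed males. Cyp6a8 read 8.41, 9.51 and 9.39 in drug-fed males and 3.90, 2.88 and 2.21 in sons of drug-fed mothers, and its difference of -0.82 from the sucrose-fed males did not pass (adjusted p = 0.134).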

How the data were processed

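RNA of 12 samples was hybridised to Affymetrix Drosophila arrays, version 2.0. The values used are log2 signals per probe set from the authors' deposited series table. The submitters' processing notes name RMA, affy and limma without role, order or version, and further detail of the normalization is not stated in the labels or the file. The log2 scale was checked on the spike-in controls, whose rise from BioB to Cre was 6.22 against a nominal 6.06. The array holds 18952 probe sets, of which 183 are controls, leaving 18769 for testing. A single gene was annotated for 13647, several for 402 and none for 4720. Symbols of 13544 were updated through RefSeq's gene table.

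Group means were fitted with limma 3.58.1 in R 4.3.3 over all 12 arrays, with Benjamini-Hochberg adjustment over all probe sets. Exact permutation tests used SciPy 1.17.1. In simulated data made from these arrays, the comparison of sons of drug-fed mothers with sucrose-fed males recovered 77.6% of probe sets changed by 0.5 log2 units, 98.5% of those changed by 1 and 100.0% of those changed by 2. The simulation changed 200 probe sets and drew noise independently for each value, whereas 3005 passed in the real comparison. Its rates may not hold there. The number of arrays limits the precision. Named genes are the 12 largest increases and decreases with adjusted p under 0.05 and no overlap between groups, plus up to 4 genes with the smallest p in each of 43 lists. Other named genes, and the subsets of lists split by name or level, were chosen after their values were seen. The members and lists were chosen with earlier results of these data known. A gene in a list is represented by its brightest probe set. Replicate numbers did not pair the samples, so no block was used. Alternatives changed the samples fitted, filter, scaling, spread model, probe sets per gene, RNA quality term and arrays.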

Additional observations from a re-analysis of the deposited data

Results flagged for a closer look

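One probe set without a gene name in the tables used here differed between the generation changes of both F1 groups. Against the same sucrose-fed males it rose by 1.15 in sons of drug-fed mothers and differed by 0.18 in sons of sucrose-fed parents, and the difference between the changes was 0.96 on the log2 scale (adjusted p = 0.0219 by limma). It lay near the floor in all other groups, with means of 0.27 to 0.45. Its call was lost with the replicate block and with array weights. It was also lost without array 1 of the sucrose-fed males, or without array 2 or 3 of either group of sons.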

How the results depend on the processing

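The 3005 calls between sons of drug-fed mothers and sucrose-fed males became 846 with the GAPDH 3′ minus 5′ difference as a covariate, and ranged from 1724 to 3155 when single arrays were left out. The other settings stayed within 1.5 times. With the replicate block the count was 2733 (1177 higher, 1556 lower), and same-numbered arrays did not deviate together (correlations -0.13, -0.07 and -0.00). The single call between both groups of sons became 2 when only their arrays were fitted, 0 without the dimmer 50% of probe sets, with array weights or with 1 value per gene (900, 1246 and at most 993 at an unadjusted p under 0.05), 2 after quantile normalization, 4 after median centring, 5 with a trended robust fit and 0 to 2 without single arrays. The single probe set called has no gene name and was dim, with group means from 0.27 to 1.42. The fits with 1 value per gene and the fit without the dimmer 50% of probe sets therefore left it out by construction. With the block it was 1, another probe set. The 2010 calls between sons of sucrose-fed parents and drug-fed males became 1087 when only those arrays were fitted, 1318 with the covariate and 780 to 2258 without single arrays. Those between sons of sucrose-fed parents and sucrose-fed males, 3854 in all, stayed within 1.5 times (2711 to 4006 without single arrays). Increases made up 30.8% of them as deposited, 42.7% after quantile normalization and 49.5% after median centring. Without array 3 of the sons of sucrose-fed parents, which had the lowest median, increases made up 40.2%. The cause of these shifts was not tested. For the 237 named genes under 23 alternatives, 5046 of 5418 results kept direction and side of the threshold, 330 lost the call, 42 gained one and 0 reversed. The covariate accounted for 80 of the losses. The GAPDH difference itself, -0.10, ranged from -0.14 to -0.06 without single arrays. Signal near the floor limits what can be said of dim genes.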

Other observations

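Of 8 paralogs of cytosolic ribosomal proteins 5 fell (RpL10Aa, RpL24-like, RpL7-like, RpS19b and RpS28-like), 3 of them without the first male array or without array 1 or 3 of the sons, and 0 passed with the RNA quality covariate. The other 32 ribosomal protein genes differed by -0.16 to 0.16, with a median of 0.01. This split by name was chosen after values were seen. Mitochondrial ribosomal proteins gave 8 increases of 69 (11.6%) and 0 decreases, and proteasome subunits 8 of 26 (30.8%) and 0. The share over all genes was 8.91% higher, near that of the mitochondrial ribosomal list. Mitochondrial ribosomal increases numbered 14 with array weights or with the dimmest 50% of probe sets left out (9 with the dimmest 30% left out) and 1 with the covariate, under which 0 proteasome subunits passed. Without the first male array the increases were 2 mitochondrial ribosomal and 4 proteasome genes, and without the first array of the sons 3 and 5. Of 19 heat shock and chaperone genes 3 rose and 3 fell, and 0 passed in either direction with the covariate. The endoplasmic reticulum members Gp93 and Hsc70-3 rose by 0.41 and 0.37, while Hsp60B and Hsp60C fell by 0.34 and 0.42. Of 24 antioxidant genes 7 rose and 1 fell, with 1 higher under the covariate, 4 without male array 1 and 3 without male array 3 or array 1 of the sons. Catalase (Cat) and Sod2, which remove reactive oxygen, rose by 0.37 and 0.31, and neither passed with the covariate.

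The largest rise of all, 4.19 on the log2 scale, belonged to a probe set that carries no gene name in the tables used here. Calls depended on signal: of 7084 probe sets with a mean under 0.5, 27 were higher and 22 lower, and of the 404 above 8, 85 were higher and 85 lower. Chemoreceptors could hardly be read, since 163 of 169 lay under 0.5, and 1 of them passed (Gr22e, by 0.32). The X chromosome held 147 increases and 203 decreases among 2188 single-gene probe sets (6.72% and 9.28%). The arm 2L held 230 and 345 among 2462 (9.34% and 14.0%). The arms 2R, 3L and 3R lay between, at 7.65% to 8.49% higher and 11.6% to 12.5% lower. Chromosome 4 gave 5 and 2 among 82, and the Y 0 and 1 among 6. Over all probe sets, with or without a gene name, the shares were 6.57% and 9.44%.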
